A study of Mus musculus with 61 samples.

Results

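The voltage-gated calcium and sodium channel genes are described here across 12 conditions of mouse pancreatic ductal organoid cells. Members were genes of the count table whose symbol starts with Cacna, Cacnb or Cacng, or with Scn followed by a number and the letter a or b. Of the 46078 genes, 38 members are described: 10 pore-forming α1 subunits of calcium channels, 4 α2δ subunits, 4 β subunits, 8 γ subunits and related proteins, 9 pore-forming α subunits of sodium channels and 3 sodium channel β subunits. The rule used symbols only and no measured value.

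Adult pancreatic ducts of C57BL/6 mice were grown as organoids and infected with lentiviral vectors that co-expressed a fluorescent reporter with a transcription factor, GFP with Ngn3, LSS-Orange with Pdx1 and tdTomato with MafA, under a doxycycline-inducible promoter. A PGK-driven Tet-On 3G transactivator was carried by a further vector. After 8 days of doxycycline, pools of 50 cells were sorted by colour and sequenced. By reporter colour, the 6 groups without Ngn3 were sorted for Pdx1 (P), MafA (M) or both (PM), and the 6 groups with Ngn3 for Ngn3 with Pdx1 (NP), with MafA (NM) or with both (NPM). Each came from organoids that received either the wild-type form of Ngn3 (WT) or the 6SA form, in which serines were replaced by alanine so that they could not be phosphorylated. Cells without Ngn3 therefore came from infected, doxycycline-treated cultures and were negative for its reporter. Replicates 1 and 2 were at passage 2 of the organoids and replicate 3 at passage 5. Uninfected cells and cells with Ngn3 alone were not analysed here. A pool can hold cells that differ in the amount of each vector, and fewer expressing cells in a pool cannot be told apart from less RNA per cell.

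After libraries with 1000000 or fewer gene counts were left out, 58 of 61 libraries gave 32 samples of 2579583 to 19461008 gene counts, 17 with Ngn3 and 15 without, 2 or 3 per condition. All 3 libraries left out held Ngn3, Pdx1 and MafA. The level that 3 counts give in a sample was 0.136 to 1.01 CPM (counts scaled to 1000000 per effective library), and this limit covers counting error only. Neurog3, the gene of the factor that separates the groups, had 7.87 to 329 CPM (median 62.6) with Ngn3 and 0 to 0.788 CPM (median 0.180) without, with no overlap, and transcripts of the vector and of the cells' own gene cannot be told apart. The other factors followed the sort less sharply. Mafa, the gene of MafA, was low, with 0.107 to 3.16 CPM (median 0.925) in M, 0 to 4.21 CPM (median 0.389) in PM, 0.306 to 7.79 CPM (median 1.94) in NM and 3.46 to 12.7 CPM (median 3.87) in NPM, against at most 0.116 CPM in P and NP, and 4 of the 11 samples sorted for MafA without Ngn3 had 3 counts or fewer. Pdx1 was also counted in every sample not sorted for it, with 4.22 to 19.3 CPM (median 10.9) in M and 3.21 to 30.6 CPM (median 11.2) in NM, against 11.2 to 37.7 CPM (median 23.1) in P, 14.0 to 36.4 CPM (median 19.8) in PM, 9.84 to 48.4 CPM (median 33.2) in NP and 30.8 to 191 CPM (median 150.3) in NPM. The combinations below are named by the sort. The 5 passage 5 samples with Ngn3 stood apart: their Neurog3 level was 7.87 to 38.8 CPM (median 24.9), against 34.9 to 329 CPM (median 148) in the 12 at passage 2. WT P, 6SA P, WT M and 6SA NPM had no passage 5 sample kept, whereas the conditions they are paired with had 1. Passage and replicate number cannot be told apart.

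Voltage-gated calcium and sodium channels open when the membrane is depolarised. The pore is formed by a single large α subunit, and its trafficking and gating are set by smaller auxiliary subunits. In pancreatic β-cells, closure of ATP-sensitive potassium channels depolarises the membrane, calcium enters through voltage-gated channels, and the rise in calcium triggers exocytosis of insulin granules. Duct epithelium is not known as an electrically excitable tissue.

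Of the 38 members, 16 were higher with Ngn3 over the 6 matched pairs of conditions (NP against P, NM against M and NPM against PM, in WT and in 6SA cultures) and 0 were lower, at an adjusted p under 0.05 in edgeR's quasi-likelihood test fitted to all 24004 genes tested. Of all genes tested, 11.1% were higher and 10.5% lower. No member was lower at an unadjusted p under 0.05 (0 of 28) or in DESeq2 (0). The members that rose were 8 of the 10 calcium channel pores (Cacna1a, Cacna1b, Cacna1c, Cacna1d, Cacna1e, Cacna1g, Cacna1h and Cacna1i), 2 of 4 α2δ subunits (Cacna2d1 and Cacna2d2), 1 of 4 β subunits (Cacnb2), 1 of 8 γ subunits (Cacng4), 3 of 9 sodium channel pores (Scn3a, Scn7a and Scn9a) and 1 of 3 sodium channel β subunits (Scn3b). A further 5 were tested and not called (Cacnb1, Cacnb3, Cacnb4, Scn4b and Scn8a). Another 7 stayed below a mean of 1 CPM in all 12 conditions (Cacna2d4, Cacng2, Cacng5, Cacng7, Scn10a, Scn2a and Scn4a), and 10 had counts in too few libraries to be tested (Cacna1f, Cacna1s, Cacna2d3, Cacng1, Cacng3, Cacng6, Cacng8, Scn11a, Scn1a and Scn2b), with at most 1.13 CPM and 25 counts in any sample.

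Of the 28 members tested, 17 had counts in at least 5 libraries without Ngn3 and 12 of these rose. The other 11 entered the test through the libraries with Ngn3, so that those among them that were called (Cacna1i, Cacna2d2, Scn7a and Scn9a) could only differ upward. The median log2 fold change of the tested members was 2.91, or 2.26 with the members that had no count without Ngn3 set at their lower bound, against 0.07 over all genes tested. It includes the 11 members that entered through the libraries with Ngn3. How many of all genes counted in at least 5 libraries without Ngn3 rose was not computed.

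The members that rose were split by their level without Ngn3. Those called switched on had a mean below 1 CPM in each of the 6 conditions without Ngn3 and of at least 1 CPM in at least 1 condition with it. There were 8: Cacna1d, Cacna1e, Cacna1i, Cacna2d2, Cacng4, Scn3a, Scn7a and Scn9a. The other 8 rose from a base of at least 1 CPM in at least 1 condition without Ngn3. For 3 of them this base rested on 1 condition: the mean of Cacna1b was 1.35 CPM in 6SA M, and in WT M those of Cacna1c and Cacna1g were 1.84 CPM and 1.02 CPM.

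**Figure D1:**
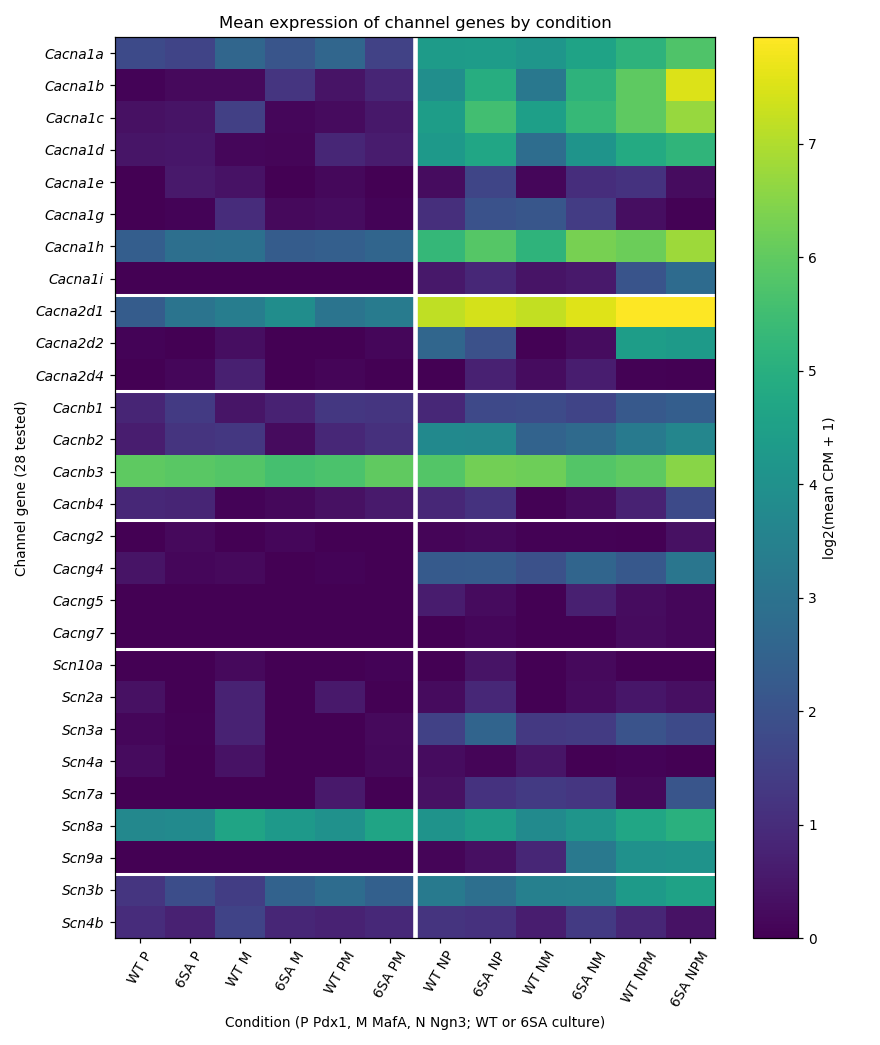
Mean expression of the 28 tested channel genes (rows, by subunit family) in the 12 conditions (columns), coloured by log2(mean CPM + 1), with the 6 conditions without Ngn3 on the left and the 6 with it on the right of the white line. Most calcium channel pores and Cacna2d1 are brighter on the right, whereas Cacnb3 and Scn8a are of like brightness on both sides.

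The start regions of the channel genes are shown because many of these genes rose in the same samples. RefSeq promoter windows (GRCm38.p6) were present for 30 of the 38 members and for 10 of the 16 that rose. The 250 bases before the start site are printed for 5 members that rose, at chr2:24763153-24763402, minus strand (Cacna1b), chr14:30353487-30353736, minus strand (Cacna1d, an internal start), chr15:80286988-80287237, plus strand (Cacna1i), chr5:15934441-15934690, plus strand (Cacna2d1) and chr2:66634963-66635212, minus strand (Scn9a), and for Cacnb3, which was not called, at chr15:98632078-98632327, plus strand. None of these windows touches an annotated exon. Capitals mark each CANNTG, the E-box letters that basic helix-loop-helix factors such as Ngn3 bind.
Cacna1b: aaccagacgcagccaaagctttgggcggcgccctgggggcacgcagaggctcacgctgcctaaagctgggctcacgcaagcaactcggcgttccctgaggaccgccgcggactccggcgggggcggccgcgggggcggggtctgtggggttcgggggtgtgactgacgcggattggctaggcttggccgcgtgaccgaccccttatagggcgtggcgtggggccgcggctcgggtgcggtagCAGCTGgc
Cacna1d: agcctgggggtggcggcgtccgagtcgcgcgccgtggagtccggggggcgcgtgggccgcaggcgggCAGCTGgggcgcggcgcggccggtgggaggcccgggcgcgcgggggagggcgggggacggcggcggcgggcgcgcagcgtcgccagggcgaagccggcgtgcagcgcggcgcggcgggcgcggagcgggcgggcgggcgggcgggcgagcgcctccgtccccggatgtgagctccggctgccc
Cacna1i: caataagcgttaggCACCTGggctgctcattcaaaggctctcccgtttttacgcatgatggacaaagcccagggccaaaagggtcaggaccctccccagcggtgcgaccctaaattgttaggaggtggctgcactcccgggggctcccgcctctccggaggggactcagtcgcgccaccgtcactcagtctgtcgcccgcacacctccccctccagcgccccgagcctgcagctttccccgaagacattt
Cacna2d1: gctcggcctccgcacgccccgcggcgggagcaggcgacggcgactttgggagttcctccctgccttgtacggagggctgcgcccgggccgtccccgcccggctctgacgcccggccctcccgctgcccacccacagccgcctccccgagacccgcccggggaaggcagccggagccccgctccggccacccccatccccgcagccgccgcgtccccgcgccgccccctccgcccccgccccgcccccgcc
Scn9a: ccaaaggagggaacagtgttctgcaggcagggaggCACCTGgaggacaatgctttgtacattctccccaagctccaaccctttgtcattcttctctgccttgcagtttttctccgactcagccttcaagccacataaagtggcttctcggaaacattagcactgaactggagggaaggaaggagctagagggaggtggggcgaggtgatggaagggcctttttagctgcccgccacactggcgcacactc
Cacnb3: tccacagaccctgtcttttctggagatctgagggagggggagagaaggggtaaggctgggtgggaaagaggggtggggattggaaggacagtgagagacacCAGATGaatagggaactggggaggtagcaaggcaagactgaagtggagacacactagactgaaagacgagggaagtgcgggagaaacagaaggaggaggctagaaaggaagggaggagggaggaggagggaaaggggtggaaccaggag

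Cacna2d1, whose samples with and without Ngn3 did not overlap, holds no E-box in its window, and neither does the RefSeq window of Cacna2d2. Cacnb3, which was not called, holds 1 in the window printed and none in its other window. Over all members that rose, 10 of 14 windows held CANNTG, against 16 of 27 windows of the other members and 66.2% of all 32851 windows of the same length. CAGCTG, which is one form of CANNTG and reads the same on both strands, was in 5 of 14 windows against 13% of all. It was also in 6 of 27 windows of the other members, so it was not particular to those that rose. CAGATG, another form (CATCTG on the other strand), was in 3 of 14 and 2 of 27 windows against 14.4%. Several windows can belong to 1 gene: among the members that rose, the 5 with CAGCTG belong to Cacna1b, Cacna1d, Cacnb2 and Scn7a. TAATTA, a homeodomain core, was in 0 of 14 windows (4.84% of all), as was TGCTGAC or GTCAGCA, the core of a Maf site (3.81% of all). The windows of the members that rose had a median GC content of 58.4%, against 52.4% over all windows, and ranged from that of Cacna1d printed above (86.4%) to its other, upstream start (39.6%).

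Cacna1c and Cacna1d form the pores of the L-type channels through which most calcium enters stimulated β-cells. Cacna1c (ENSMUSG00000051331, chr6:118587240-119196418) had 0 to 128.5 CPM (median 34.0) with Ngn3 and 0 to 1.85 CPM (median 0.270) without. In 14 of 17 samples with Ngn3 it was above every sample without, and the 3 others, all at passage 5, had at most 1.22 CPM (edgeR, log2 fold change 6.78 ± 0.77 (SE), adjusted p = 1.80e-07). Cacna1d (ENSMUSG00000015968, chr14:30039939-30491455) had 1.68 to 44.9 CPM (median 14.8) with and 0 to 2.17 CPM (median 0.214) without Ngn3. Here 16 of 17 samples with Ngn3 were above every sample without, and 1 sample, 6SA NM replicate 3, was not (edgeR, log2 fold change 5.82 ± 0.63 (SE), adjusted p = 9.70e-08). Exons of Cacna1d overlap Chdh on the opposite strand. The L-type pores of skeletal muscle, Cacna1s, and of the retina, Cacna1f, were not tested, with at most 0.550 and 0.692 CPM in any sample.

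Cacna1a, Cacna1b and Cacna1e encode the pores of the P/Q-, N- and R-type channels, which in neurons trigger transmitter release. Cacna1b (ENSMUSG00000004113, chr2:24603887-24763152) covered the widest range of the calcium pores, with 1.07 to 233 CPM (median 21.0) with Ngn3 against 0 to 2.90 CPM (median 0.280) without. A few samples overlapped, as 12 of 17 with Ngn3 were above every sample without (edgeR, log2 fold change 6.64 ± 0.81 (SE), adjusted p = 5.41e-07). Cacna1a (ENSMUSG00000034656, chr8:84388440-84640246) was counted in every sample and had 2.62 to 61.8 CPM (median 27.3) with Ngn3 and 0.714 to 7.49 CPM (median 3.32) without. It rose by less (edgeR, log2 fold change 3.03 ± 0.45 (SE), adjusted p = 1.01e-05), and 14 of 17 samples with Ngn3 were above all those without. Its exons overlap Gm16183 on the opposite strand. Cacna1e stayed near the limit of detection: it had 0 to 5.98 CPM (median 0.324) with and 0 to 0.896 CPM (median 0) without Ngn3, and 3 of 17 samples with Ngn3 were above all those without (edgeR, log2 fold change 2.61 ± 0.93 (SE), adjusted p = 0.0431). Its call is weak, as DESeq2 gave an adjusted p of 0.0742 and leaving out replicate 1 or replicate 2 ended it (edgeR, adjusted p = 1.00 and 0.169).

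Cacna1g, Cacna1h and Cacna1i encode the T-type pores, which open at low voltages. Cacna1h (ENSMUSG00000024112, chr17:25374285-25433783) had 0.264 to 11.3 CPM (median 4.61) without Ngn3 and 4.10 to 152 CPM (median 65.9) with it. In 14 of 17 samples with Ngn3 it was above every sample without (edgeR, log2 fold change 3.54 ± 0.53 (SE), adjusted p = 1.36e-05), and its exons overlap Tpsg1 on the opposite strand. Cacna1g had 0 to 6.78 CPM (median 0.820) with Ngn3 and 0 to 2.04 CPM (median 0) without, and 6 of 17 samples were above all those without (edgeR, log2 fold change 2.79 ± 0.98 (SE), adjusted p = 0.0406). Without replicate 1 or replicate 2 this call was lost (edgeR, adjusted p = 1.00 and 0.109). Cacna1i (ENSMUSG00000022416, chr15:80287238-80398279) had no count in any of the 15 samples without Ngn3. With it, 10 of 17 samples had counts and the range was 0 to 7.29 CPM (median 0.133), so that the mean of 1.61 CPM was at least 3.74-fold higher than the level of 3 counts per sample (0.431 CPM on average) (edgeR, adjusted p = 9.95e-04). This call was lost without replicate 1 (edgeR, adjusted p = 1.00).

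To compare pores with each other, CPM was divided by the length of the union of a gene's exons in kilobases (kb). The summed level of the 10 calcium pores was 1.21 to 53.6 CPM per kb (median 17.4) with Ngn3 and 0.413 to 1.78 CPM per kb (median 0.902) without. The groups overlapped only at the low end of the samples with Ngn3. Without Ngn3, Cacna1h made up a median 62.4% of this sum per sample, Cacna1a 23.7% and Cacna1b 1.82%. With Ngn3, the median shares were 38.9% for Cacna1h, 19.0% for Cacna1b, 16.6% for Cacna1a, 11.7% for Cacna1c and 10.4% for Cacna1d. In the 5 NPM samples the mean level per kb was 11.1 for Cacna1b (1.02 to 23.5) and 8.78 for Cacna1h (2.21 to 15.6), followed by Cacna1c with 3.72, Cacna1a with 3.66 and Cacna1d with 2.46. The ranges of neighbours in this order overlap. Per kb, Cacna1h was above Cacna1b in each WT NPM sample and below it in both 6SA NPM samples. The sum of the 9 sodium pores was 0.743 to 2.06 CPM per kb (median 1.10) without Ngn3 and 0.455 to 5.15 CPM per kb (median 1.72) with it, and the samples with Ngn3 spanned the whole range of those without.

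**Figure D2:**
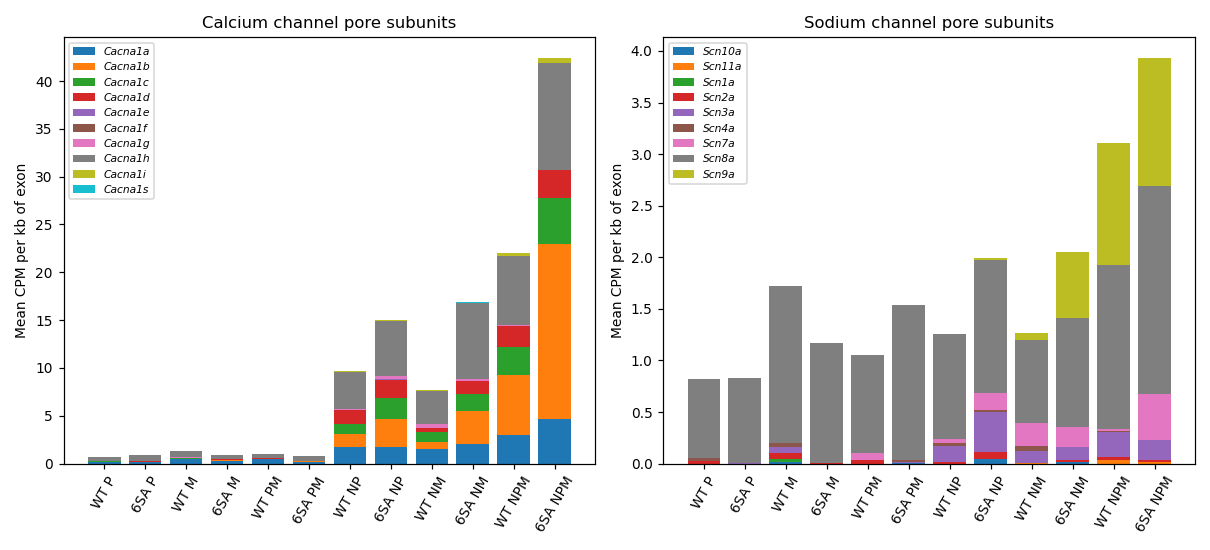
Mean CPM per kb of exon of the calcium channel pores (left) and the sodium channel pores (right) in the 12 conditions, stacked by gene. Calcium pores are near the axis in the 6 conditions without Ngn3 and highest in 6SA NPM, where Cacna1b and Cacna1h take the largest parts, whereas Scn8a is the largest part of the sodium bars without Ngn3 and a smaller part of several with it.

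The α2δ subunits are extracellular proteins that carry calcium pores to the cell surface, and Cacna2d1 and Cacna2d2 are the binding sites of gabapentin. Cacna2d1 (ENSMUSG00000040118, chr5:15934691-16374511) was the member with the most counts. It had 41.2 to 334 CPM (median 194) with Ngn3 and 1.68 to 19.9 CPM (median 7.84) without, so that all 17 samples with Ngn3, those at passage 5 included, were above all 15 without. It was the only member without overlap, a pattern that 0.542% of all genes tested showed, and it rose with the smallest error (edgeR, log2 fold change 4.53 ± 0.34 (SE), adjusted p = 1.61e-10). It was called in each of the 6 matched pairs as well. Cacna2d2 (ENSMUSG00000010066, chr9:107399612-107529343) was split among the samples with Ngn3, with 0 to 40.7 CPM (median 0.623) against 0 to 0.429 CPM (median 0) without, where it had 7 counts in 15 samples (edgeR, log2 fold change 5.64 ± 1.32 (SE), adjusted p = 0.00284). Leaving out replicate 1 or replicate 2 ended this call (edgeR, adjusted p = 1.00 and 1.00), and exons of Cacna2d2 overlap Gm17141 on the opposite strand. Cacna2d4 had at most 1.99 CPM in any sample, and Cacna2d3 was not tested.

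**Figure D3:**
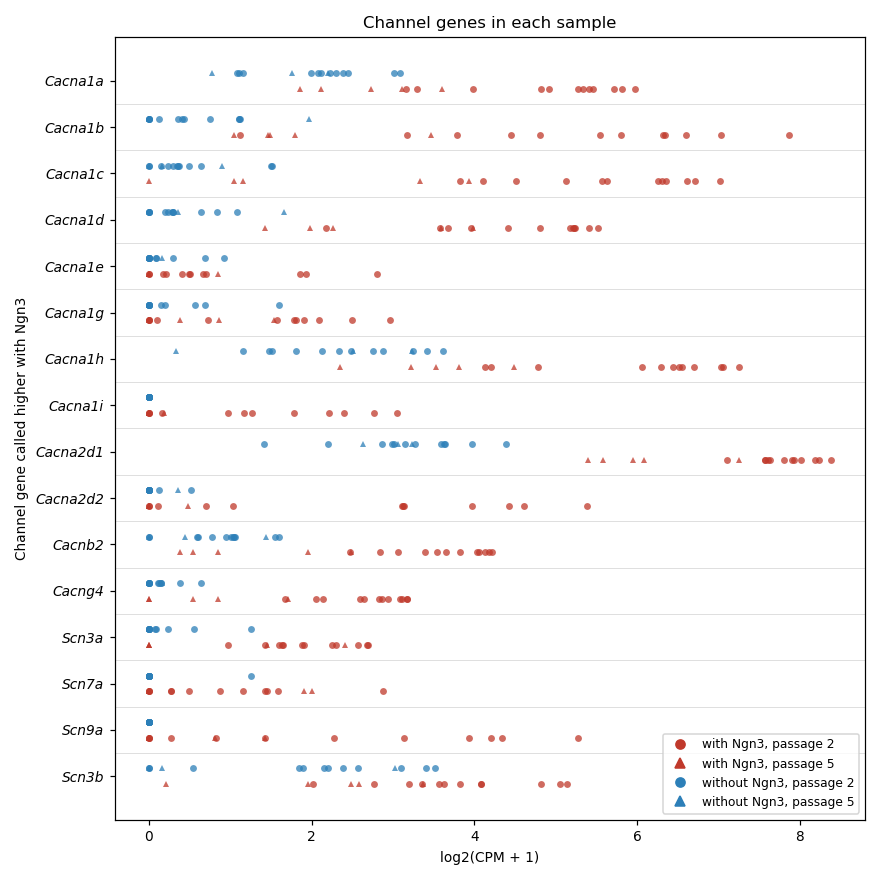
log2(CPM + 1) of the 16 members that rose, 1 point per sample, with the 17 samples with Ngn3 in red and the 15 without in blue, circles for passage 2 and triangles for passage 5. Cacna2d1 is the member whose colours do not overlap, and for most genes the red triangles lie to the left of the red circles.

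The β subunits sit inside the cell and bring the pore to the membrane. Cacnb3 (ENSMUSG00000003352, chr15:98630840-98644529) dominated with and without Ngn3, with 20.2 to 143 CPM (median 69.9) and 7.38 to 117 CPM (median 55.7). The groups overlapped almost fully, as 1 of 17 samples with Ngn3 was above all those without (edgeR, log2 fold change 0.27 ± 0.32 (SE), adjusted p = 0.721). Cacnb2, the β subunit best known from the heart, had 0.303 to 17.6 CPM (median 9.52) with Ngn3 and 0 to 2.03 CPM (median 0.925) without, and 14 of 17 samples were above all those without (edgeR, log2 fold change 3.42 ± 0.58 (SE), adjusted p = 5.85e-05). Per kb of exon, Cacnb3 made up a median 92.8% of the β subunit sum with Ngn3 and 97.6% without, and Cacnb2 3.44% and 0.418%. Cacnb1 and Cacnb4 were not called, with medians of 1.25 and 0.492 CPM with Ngn3 and 0.429 and 0.280 CPM without (edgeR, adjusted p = 0.293 and 0.746). Cacnb1, Cacnb2 and Cacnb4 share exon bases with genes on the opposite strand.

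The γ family includes the muscle calcium channel subunit Cacng1 and the TARPs, which carry AMPA-type glutamate receptors to the synapse. Cacng4, a TARP, was the only one of the 8 that rose. It had 0 to 8.00 CPM (median 5.06) with Ngn3 and 0 to 0.559 CPM (median 0) without, where it had 9 counts in 15 samples (edgeR, log2 fold change 6.09 ± 0.86 (SE), adjusted p = 1.04e-05), and 14 of 17 samples with Ngn3 were above all those without. Its neighbours on chromosome 11, Cacng1 and Cacng5, lie with it within 0.212 Mb. Cacng5 had no count without Ngn3 and at most 1.53 CPM with it, and Cacng1 had 1 count in all. Cacng2 and Cacng7 did not pass 0.475 CPM in any sample, and Cacng3, Cacng6 and Cacng8 were not tested.

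Sodium channel pores carry the upstroke of the action potential. Scn8a (ENSMUSG00000023033, chr15:100869858-101045938), a main sodium pore of neurons, was the most expressed of the 9 with and without Ngn3, at 4.96 to 38.2 CPM (median 19.7) and 11.6 to 32.1 CPM (median 15.5). The groups overlapped over nearly their whole range (edgeR, log2 fold change 0.19 ± 0.24 (SE), adjusted p = 0.758). Scn9a (ENSMUSG00000075316, chr2:66480080-66634962), the pore of peripheral neurons that is known for its role in pain and is also found in islets, had no count in any of the 15 samples without Ngn3. With Ngn3, 11 of 17 samples had counts and the range was 0 to 37.7 CPM (median 0.770), so that the mean of 6.2 CPM was at least 14.4-fold higher than the level of 3 counts per sample (edgeR, adjusted p = 1.42e-04). Without replicate 1 the call was lost (edgeR, adjusted p = 1.00), and the exons of Scn9a overlap Gm13629 on the opposite strand. Per kb of exon, Scn8a was a median 99.1% of the sodium pore sum without Ngn3 and 64.3% with it, and Scn9a reached up to 57.4% in a sample with Ngn3.

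Scn3a, an embryonic brain sodium pore, had 0 to 5.46 CPM (median 2.14) with Ngn3 and 0 to 1.39 CPM (median 0) without (edgeR, log2 fold change 4.73 ± 0.85 (SE), adjusted p = 1.53e-04), and 13 of 17 samples were above all those without. This call was lost without replicate 2 (edgeR, adjusted p = 0.0582). Scn7a, which encodes the sodium-sensing channel Nax, had 0 to 6.34 CPM (median 0.405) with Ngn3, and without Ngn3 it was counted in 1 of 15 samples, at 1.38 CPM (edgeR, log2 fold change 5.24 ± 1.18 (SE), adjusted p = 0.00251). It was lost without replicate 1 and without replicate 2 (edgeR, adjusted p = 1.00 and 0.0893). Scn3a, Scn7a and Scn9a lie on chromosome 2 between positions 65457118 and 66784914, together with Scn1a and Scn2a. Of these, Scn1a had 5 counts in all and Scn2a reached at most 1.59 CPM. Scn4a of skeletal muscle, and Scn10a and Scn11a of sensory neurons, stayed at or below 1.04 CPM.

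The sodium channel β subunits are single-pass membrane proteins that modulate gating and cell adhesion. Scn3b had 0.153 to 34.3 CPM (median 9.31) with Ngn3 and 0 to 10.5 CPM (median 3.43) without, with 8 of 17 samples above all those without (edgeR, log2 fold change 1.89 ± 0.63 (SE), adjusted p = 0.0291). This was the smallest rise among the 16 members, and the call was lost without replicate 2 (edgeR, adjusted p = 0.869). Scn4b was not called and its groups overlapped, with 0 to 3.37 CPM (median 0.610) and 0.321 to 3.70 CPM (median 0.788) (edgeR, log2 fold change -0.18 ± 0.60 (SE), adjusted p = 1.00), and Scn2b had 2 counts in all.

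**Figure D4:**
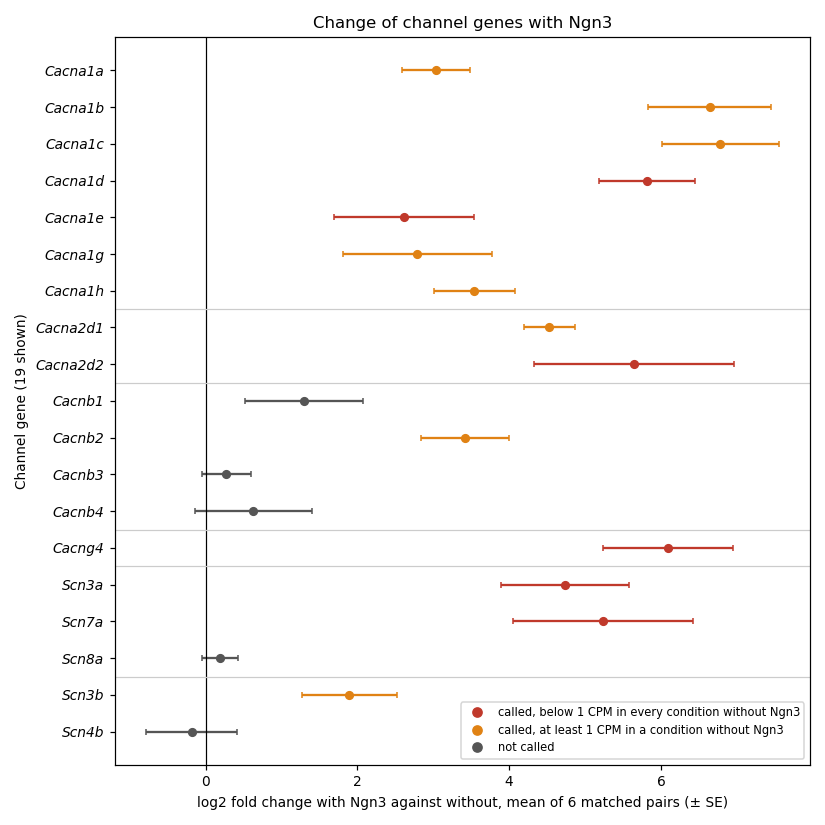
log2 fold change with Ngn3 against without, as the mean over the 6 matched pairs of conditions, with its SE, for 19 tested members, coloured by their level without Ngn3. The 7 members below 1 CPM throughout, and Cacna1i and Scn9a, which had no count without Ngn3, are not drawn, and the grey points of Cacnb3, Scn8a and Scn4b lie near 0.

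In single matched pairs of 2 or 3 samples a condition, fewer members passed the test. In WT cultures, 1 of 38 members was higher in NP than in P (0.108% of all genes tested were higher), 1 in NM than in M (0.308%) and 8 in NPM than in PM (2.48%). In 6SA cultures the counts were 1 for NP (0.367%), 4 for NM (1.17%) and 9 for NPM (3.29%). None was lower in any pair in edgeR or in DESeq2, where of all genes 0.354% were lower in WT NM, 0.404% in 6SA NM, 2.38% in WT NPM, 2.5% in 6SA NPM and 0% in both NP pairs in edgeR. At an unadjusted p under 0.05 there was 1 member, in WT NM. Whether these counts differ between pairs is not shown by them. In WT cultures DESeq2 called 5 members for NP (0.825% of all genes were higher in DESeq2), 2 for NM (1.34%) and 10 for NPM (5.72%). In 6SA cultures it called 5 (1.62%), 8 (3%) and 8 (6.47%). In 6SA NM, whose 3 pairs of same-numbered samples deviated together, 8 members rose when the replicate number was a block. The block also called more members than the fit without it in both NP pairs. There only replicates 1 and 2 could be paired, and same-numbered samples correlated at 0.523 to 0.746. Beside Cacna2d1, which was called in all 6, Cacna1c and Cacna1d were called in WT NPM, 6SA NPM and 6SA NM.

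The values of single samples show the size of these changes. Cacna2d1 had 8.65, 7.84 and 5.18 CPM in WT PM and 239.7, 334 and 152 CPM in WT NPM (edgeR, log2 fold change 5.06 ± 0.75 (SE), adjusted p = 1.57e-04). In 6SA cultures it had 11.4, 6.94 and 8.43 CPM in PM and 189 and 300.1 CPM in NPM (edgeR, log2 fold change 4.77 ± 0.77 (SE), adjusted p = 3.74e-04). In every pair the lowest sample with Ngn3 was above the highest without. Cacna1b had 0.689, 0.349 and 0 CPM in WT PM and 96.2, 80.0 and 10.1 CPM in WT NPM (edgeR, log2 fold change 7.34 ± 1.71 (SE), adjusted p = 0.0103), where the passage 5 sample was the lowest. In 6SA it had 1.18, 1.16 and 0 CPM in PM and 129.9 and 233 CPM in NPM (edgeR, log2 fold change 7.78 ± 1.72 (SE), adjusted p = 0.00676), again with no overlap. Cacna1a was called in 6SA NPM, with 3.95, 1.16 and 0.714 CPM in PM and 51.5 and 55.3 CPM in NPM (edgeR, log2 fold change 4.73 ± 1.09 (SE), adjusted p = 0.00921).

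Whether the effect of Ngn3 depended on the co-expressed factors was tested over the 3 combinations at once. No member passed (0 in edgeR and 0 in DESeq2, 0 at an unadjusted p under 0.05, lowest adjusted p = 0.749 in edgeR), and 0.0333% of all genes did. For 9 of the 28 members tested, Cacna1i, Cacna2d2, Scn7a and Scn9a among them, p was 1: their medians in P, M and PM were 0 to 0.028 CPM, and this test says nothing about them. The combinations with Ngn3 were then compared with each other directly over both kinds of culture, and these comparisons share samples. Scn9a was higher in NPM than in NP, where it had 0 to 37.7 CPM (median 14.2) against 0 to 0.770 CPM (median 0) (edgeR, log2 fold change 6.34 ± 1.44 (SE), adjusted p = 0.0265). It was the only member of 38 called there (0.525% of all genes were higher and 1.35% lower). In NM it had 0 to 19.2 CPM (median 1.69), between the other combinations, and the test of NP against NM did not call it (edgeR, log2 fold change -3.80 ± 1.31 (SE), adjusted p = 0.368). That test called no member in edgeR or DESeq2, with 3.0 at an unadjusted p under 0.05, while 0.0875% of all genes were higher in NP and 0.0458% lower.

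Cacna2d2 was higher in NPM than in NM, with 0.399 to 40.7 CPM (median 20.5) against 0 to 0.623 CPM (median 0) (edgeR, log2 fold change 7.60 ± 1.54 (SE), adjusted p = 0.0101), and was the only member called there (1.17% of all genes were higher and 1.56% lower). In NP it had 0 to 7.76 CPM (median 4.34), and neither NPM against NP nor NP against NM passed (edgeR, adjusted p = 0.348 and 0.176). Each sorted sample with both Ngn3 and Pdx1 at passage 2 had counts of Cacna2d2, and the passage 5 samples kept had at most 0.399 CPM. However, the passage 5 library of 6SA NPM, left out for depth, had 29.4 CPM of Cacna2d2 from 12 counts. Neither the call of Scn9a nor that of Cacna2d2 is firm: without replicate 2 no member was called in either comparison, and DESeq2 called 0 members in NPM against NP and 2 in NPM against NM. With the replicate number as a block, more members were called in both comparisons. Cacna1i had 0.133 to 7.29 CPM (median 4.27) in NPM, 0 to 2.45 CPM (median 0.0581) in NP and 0 to 1.41 CPM (median 0) in NM, and did not pass in NPM against either (edgeR, adjusted p = 0.404 and 0.238). Cacna1b had 10.1 to 233 CPM (median 96.2) in NPM, 1.75 to 79.0 CPM (median 10.4) in NP and 1.07 to 54.7 CPM (median 11.4) in NM, which did not pass either (edgeR, adjusted p = 0.215 and 0.121). Cacna1g ran the other way, with 0 to 0.648 CPM (median 0) in NPM against 0 to 4.65 CPM (median 2.18) in NP and 0 to 6.78 CPM (median 2.36) in NM, and was not called (edgeR, adjusted p = 0.190 and 0.120).

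**Figure D5:**
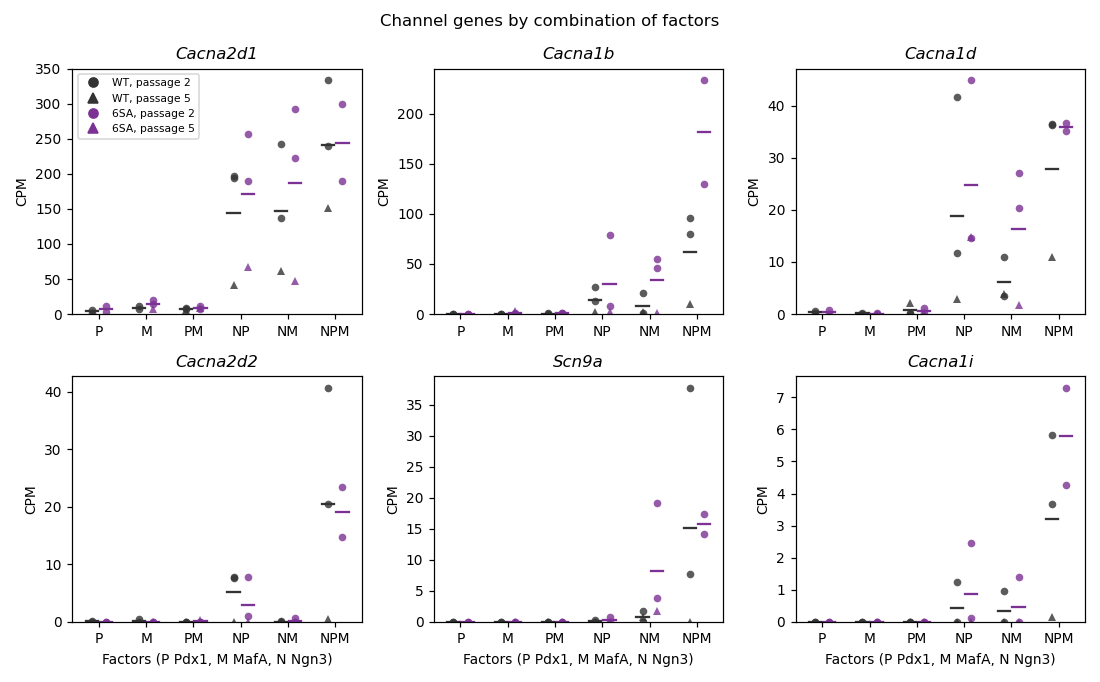
CPM of 6 members that rose with Ngn3, in cells with Pdx1 (P), MafA (M), both (PM) and the same with Ngn3 (NP, NM, NPM), 1 point per sample, with WT cultures in grey and 6SA in purple, circles for passage 2, triangles for passage 5 and lines for condition means. Cacna2d2 has points above 10 CPM in NPM and none above 1 CPM in NM, and Scn9a has none above 1 CPM in NP.

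Repeats of 1 sample show how even these levels were between pools of 50 cells. CPM of single pools used plain gene counts, not effective library sizes. In WT NPM replicate 1, the 3 pools had 215 to 288 CPM of Cacna2d1 and 26.1 to 81.6 CPM of Cacna2d2. Scn9a had counts in 2 of these 3 pools, with 0 to 12.1 CPM, and Cacna1i in 2 of 3, with 0 to 15.1 CPM. In 6SA NPM replicate 1 all 3 pools held both, with 8.28 to 20.8 CPM of Scn9a and 2.76 to 5.96 CPM of Cacna1i. Over the 8 samples with Ngn3 that had more than 1 pool, Cacna2d1 was counted in each pool, and its widest range within a sample was 165 to 347 CPM, in 6SA NM replicate 2.

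The 6SA and the wild-type form of Ngn3 were compared over NP, NM and NPM. No member was called (0 in edgeR and 0 in DESeq2), 2 had an unadjusted p under 0.05, and 0 of all genes tested were called in edgeR (0%). The largest difference among the calcium pores was that of Cacna1b, which was higher with 6SA by a log2 fold change of 1.56 ± 0.75 (SE) (edgeR, adjusted p = 0.840). For Cacna1h the difference was 0.79 ± 0.63 and for Cacna2d1 0.21 ± 0.38 on the same scale, and neither passed (edgeR, adjusted p = 0.968 and 1.00). Counted in each kind of culture, 10 members were higher with wild-type Ngn3 (4.23% of all genes) and 13 with the 6SA form (8.12%), but the interaction of form and Ngn3 called 0 members in edgeR and in DESeq2, with 2 at an unadjusted p under 0.05. Between 6SA and WT cultures without Ngn3, no member was called either (0 in both tools, 1 at an unadjusted p under 0.05). With 2 or 3 samples a condition, these tests do not show that the forms act alike.

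Among the cells without Ngn3, no member was called between PM and P, PM and M or P and M (0 in edgeR and in DESeq2, 0 at an unadjusted p under 0.05). Cacna2d1 had 1.68 to 11.1 CPM (median 4.96) in P, 7.07 to 19.9 CPM (median 11.4) in M and 5.18 to 11.4 CPM (median 8.14) in PM. Cacna1h had 2.52 to 8.46 CPM (median 5.19), 0.264 to 11.3 CPM (median 1.85) and 1.22 to 8.43 CPM (median 4.38) in the same order. The ranges overlapped in both genes.

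The summed level of the members had a lower median at passage 5 than at passage 2, with and without Ngn3, and without Ngn3 the ranges overlapped. It was 362 to 1141 CPM (median 682) at passage 2 and 104 to 282 CPM (median 135) at passage 5 with Ngn3, and 66.5 to 175 CPM (median 109.8) and 45.9 to 73.7 CPM (median 56.5) without (12 and 3 samples). Cacnb3 without Ngn3 had 41.0 to 117 CPM (median 59.4) at passage 2 and 7.38 to 22.4 CPM (median 19.9) at passage 5, with no overlap. All 16 members that rose had a higher median in the 12 passage 2 samples with Ngn3 than in the 5 at passage 5. The share of all genes that did so was not computed, and most samples in the fit that called the 16 were at passage 2. Cacna1b had 1.17 to 233 CPM (median 50.2) at passage 2 and 1.07 to 10.1 CPM (median 1.82) at passage 5, Cacna1c 13.2 to 128.5 CPM (median 62.1) and 0 to 14.4 CPM (median 1.22), and Cacna1h 16.5 to 152 CPM (median 88.4) and 4.10 to 21.5 CPM (median 10.5). Scn8a, which was not called with Ngn3, had 4.96 to 38.2 CPM (median 23.6) and 6.56 to 19.9 CPM (median 14.4). The Neurog3 level given above and the summed level of 20 endocrine genes moved the same way, the latter from 9156 to 42653 CPM (median 18989) at passage 2 to 1967 to 13053 CPM (median 4695) at passage 5, and their part in the difference was not tested. At passage 2 alone (without replicate 3) all 16 members were called. At passage 5 alone, with 5 samples with Ngn3 and 3 without, 1 member was called, Cacna2d1, and 1.23% of all genes were higher. There 15 of the 16 members had positive fitted log2 fold changes, the lowest being 0.95 (Scn3b). Cacna1g, Cacna1i, Scn3a, Scn7a and Scn9a had 0 CPM in all 3 samples without Ngn3, so their sign could only be positive. The fitted values of Scn3a (5.99, edgeR, adjusted p = 0.304) and Cacna1g (5.02, edgeR, adjusted p = 0.341) therefore have no defined size. The 16 were called in a fit that held these samples, and the share of all genes with a positive value was not computed. Cacna2d2 had a log2 fold change of -0.19 (edgeR, adjusted p = 1.00). That fit lacks the passage 5 library of 6SA NPM, left out for depth, which had 29.4 CPM of Cacna2d2.

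Of 28 genes listed as partners and regulators of these channels, 27 were tested, 15 were higher with Ngn3 and 2 lower (11.1% and 10.5% of all genes tested were), with a median log2 fold change of 2.04. Genes of the NALCN complex, a voltage-insensitive sodium leak channel, rose together: Nalcn had 0 to 26.5 CPM (median 2.62) with Ngn3 and 0 to 4.36 CPM (median 0.118) without (edgeR, log2 fold change 4.44 ± 0.86 (SE), adjusted p = 3.39e-04). Its partner Unc79 had 1.15 to 62.2 CPM (median 12.4) and 0 to 2.19 CPM (median 0.107) (edgeR, log2 fold change 5.65 ± 0.73 (SE), adjusted p = 1.33e-06), Unc80 had 0.917 to 45.0 CPM (median 21.6) and 0 to 0.523 CPM (median 0) (edgeR, log2 fold change 8.78 ± 0.71 (SE), adjusted p = 1.42e-09) and Fam155a had 0 to 47.7 CPM (median 4.60) and 0 to 0.168 CPM (median 0) (edgeR, log2 fold change 8.62 ± 1.11 (SE), adjusted p = 8.24e-06). All 4 genes listed for this complex were called.

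Rimbp2, which ties calcium channels to release sites, had 1.53 to 57.2 CPM (median 37.6) with Ngn3 and 0 to 0.0766 CPM (median 0) without, with no overlap (edgeR, log2 fold change 10.83 ± 0.79 (SE), adjusted p = 3.39e-09). Rims2, another release site protein that is present in islets, had 12.1 to 75.6 CPM (median 31.0) and 2.37 to 19.6 CPM (median 12) (edgeR, log2 fold change 1.46 ± 0.27 (SE), adjusted p = 2.16e-04). Nfasc, an adhesion protein that anchors sodium channels in axons, had 9.35 to 374 CPM (median 116) and 0 to 8.79 CPM (median 1.5) (edgeR, log2 fold change 5.74 ± 0.65 (SE), adjusted p = 1.71e-07). The intracellular sodium channel modulator Fgf12 rose (edgeR, log2 fold change 5.36 ± 0.69 (SE), adjusted p = 1.78e-06), whereas its relative Fgf13 did not pass (edgeR, log2 fold change -0.59 ± 0.47 (SE), adjusted p = 0.478). Cachd1, an α2δ-like protein, and Stac, an L-type channel regulator, were the 2 that fell (edgeR, adjusted p = 0.0105 and 0.0420), Cachd1 from 4.61 to 20.0 CPM (median 8.94) without Ngn3 to 1.30 to 10.6 CPM (median 4.44) with it.

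Genes of other routes of calcium were read beside the channels. Of 25 listed, all tested, 8 were higher and 2 lower, with a median log2 fold change of 0.12, against the same shares of all genes. None of the store-operated entry genes Stim1, Stim2, Orai1, Orai2 and Orai3 was called, and Stim1 had 23.9 to 96.2 CPM (median 49.4) with and 14.0 to 97.9 CPM (median 41.9) without Ngn3 (edgeR, log2 fold change 0.12 ± 0.24 (SE), adjusted p = 0.957). Those that rose included the store pump Atp2a3, known from islets, with 7.71 to 294 CPM (median 78.2) and 0 to 10.5 CPM (median 3.32) (edgeR, log2 fold change 4.46 ± 0.72 (SE), adjusted p = 3.64e-05), the sodium-calcium exchanger Slc8a1 (edgeR, log2 fold change 4.30 ± 0.79 (SE), adjusted p = 2.14e-04) and the plasma membrane calcium pump Atp2b2 (edgeR, log2 fold change 5.46 ± 1.05 (SE), adjusted p = 4.20e-04). Trpm4, a calcium-activated sodium channel, and the pump Atp2b4 fell (edgeR, adjusted p = 0.00604 and 0.0475).

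Other markers moved with Ngn3 beside the channels, and their part in the channel results was not tested. All 20 endocrine genes listed were higher, with a summed level of 1967 to 42653 CPM (median 13053) with Ngn3 and 56.4 to 127 CPM (median 104) without. Of 14 neuronal genes, 13 were tested and 11 were higher, with sums of 62.0 to 1909 CPM (median 548) and 8.96 to 85.7 CPM (median 20.6), and several of these (Tubb3, Snap25, Map2) are also expressed in islets. Rbfox3, Elavl3, Elavl4, Nefl and Nefm were among those higher. Nefm had 24.1 to 539 CPM (median 159) with Ngn3 and 0 to 0.672 CPM (median 0.120) without. Syt1 and Gad2 were not called. The vesicular glutamate transporter Slc17a6 was at 0 in all samples. Slc17a7 was called higher (edgeR, log2 fold change 3.71 ± 0.97 (SE), adjusted p = 0.00765) but had at most 2.14 CPM. Of 16 duct genes, 0 were higher and 11 lower, with sums of 5462 to 54297 CPM (median 17959) and 57822 to 147678 CPM (median 75779.6). Of 12 acinar genes 6 were tested, of which 1 was higher and 1 lower, with sums of 2.22 to 49.7 CPM (median 11.8) and 0.617 to 17.1 CPM (median 7.65). None of 10 mesenchymal genes (7 tested) or 10 blood and endothelial genes (4 tested) was called: the mesenchymal sum was 0.339 to 312 CPM (median 1.59) and 0.143 to 16.1 CPM (median 2.25), its highest value being WT NM replicate 1, and the blood and endothelial sum 1.01 to 47.5 CPM (median 15.4) and 1.23 to 18.2 CPM (median 14.2).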

How the data were processed

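The authors aligned single-end reads of each 50-cell library to the mouse genome (mm10) with GSNAP and counted them per gene with HTSeq (0.5.3p3), per the labels, and deposited raw counts of 46078 genes in 61 libraries. Rows for reads outside genes (33.86 to 67.27% of a library) and 92 spike-in sequences stayed out of library sizes and tests. Whether counting used strand was not given in the sources used here, so that the 11 members that share exon bases with another gene are uncertain. Reads were amplified and are not independent molecules.

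Libraries with more than 1000000 gene counts were kept (58), as the rule asks, and technical repeats of a sample were summed. The study's gene filter (counts in 5 or more libraries and a variance above 0.001, here taken on log2(CPM + 1)) left 24004 genes to test. CPM used TMM effective library sizes, except in single pools and in the libraries left out for depth, where plain gene counts were used. The 12 conditions entered 1 fit of edgeR's (4.0.16, R 4.3.3, limma 3.58.1) quasi-likelihood test, two-sided, with Benjamini-Hochberg adjustment over all genes and a threshold of 0.05. The standard error (SE) is the log2 fold change over the square root of F. DESeq2 (1.42.0), RLE scaling, other filters, the newer edgeR setting, the replicate number as a block, other libraries and left-out replicates were alternatives, and the scripts were tested on simulated data. Nothing says that replicates are separate animals, so p-values measure the spread between these samples. Same-numbered samples of a matched pair deviated together in 12 of 14 pairs (correlation over 0.1 across 5000 genes, median 0.34, lowest -0.39), and in every one of 3 pairs for 6SA NM and WT NPM.

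Every member described was named by class: switched on, raised from a base, not called, low or not tested. Some genes that match the rule are not reported here. The members and lists were chosen with earlier results of these data known. Promoter windows came from RefSeq (GRCm38.p6) and exons from GENCODE.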

Additional observations from a re-analysis of the deposited data

Results flagged for a closer look

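The 3 libraries left out for depth, all from NPM cells, held counts of the channel genes above the level of every sample without Ngn3. In the WT NPM replicate 2 library (625650 gene counts) these were Cacna2d1 at 299 CPM, Cacna1h at 107 CPM, Cacna1a at 78.3 CPM, Cacna1c at 75.1 CPM, Cacna1b at 57.5 CPM, Cacna2d2 at 54.3 CPM, Scn8a at 51.1 CPM, Cacna1d at 44.8 CPM, Scn3b at 30.4 CPM, Cacnb2 at 19.2 CPM, Scn3a at 11.2 CPM and Cacng4 at 7.99 CPM. In the 6SA NPM replicate 2 library (241563 gene counts) they were Cacna2d1 at 327 CPM, Cacna1b at 70.4 CPM, Cacna1h at 62.1 CPM, Cacna1c at 58 CPM, Scn8a at 45.5 CPM, Cacna2d2 at 41.4 CPM, Cacna1d at 37.3 CPM, Cacna1a and Scn9a at 33.1 CPM each, and Cacnb2 and Cacng4 at 29 CPM each. In the 6SA NPM replicate 3 library (408733 gene counts, passage 5), the only one of that sample, they were Cacna2d1 at 127 CPM, Cacna1c at 46.5 CPM, Cacna2d2 at 29.4 CPM, Cacna1a at 24.5 CPM, Cacna1d at 19.6 CPM, Cacna1b at 17.1 CPM and Cacna1h at 14.7 CPM. At these depths 3 counts give 4.80, 12.4 and 7.34 CPM in the same order of libraries. Their CPM used plain gene counts, whereas those of the samples kept used effective library sizes. The share of all genes above every sample without Ngn3 was not computed, and Scn8a, listed in 2 libraries, was not called with Ngn3.

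Scn4b, a sodium channel β subunit that was not called with Ngn3, stood out in the same libraries, with 46.4 CPM in WT NPM replicate 2, 153 CPM in 6SA NPM replicate 2 and 110 CPM in 6SA NPM replicate 3, from 29, 37 and 45 counts. The highest of the 32 samples kept had 3.70 CPM, on the scale of effective library sizes. Of 7146 genes with more than 3 counts in all 3 libraries, 371 (5.19%) were above every sample kept in all 3, and Scn4b was the only one of the 10 members with that many counts.

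Scn8a was lower in all 3 WT NM samples (mean 12.8 CPM, from 16.5, 4.96 and 16.9 CPM) than in both WT M samples (28.3 and 19.7 CPM), whereas every 6SA NP sample was above both 6SA P samples, another combination and culture. In 6SA cultures NM (27.5, 7.99 and 14.4 CPM) and M (22.8, 14.6 and 17.7 CPM) overlapped, as did NP (19.7, 21.9 and 6.56 CPM) and P (11.6 and 12.6 CPM) in WT cultures. The difference between pairs was not tested on its own, and Scn8a passed in no matched pair in edgeR. Groups this small can separate by chance, and the share of all genes that did so in these pairs was not computed. No conclusion is therefore drawn from either separation.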

How the results depend on the processing

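Over the 6 matched pairs, the 16 calls were kept with RLE scaling, no filter, all 61 libraries, edgeR's own filter, the replicate block and without replicate 3. DESeq2 kept 15 (Cacna1e was lost), the newer edgeR setting 13 (Cacna1e, Cacna1g and Cacna2d2 were lost), and the first technical repeat alone 10. Leaving out a replicate gave 10 to 16 members higher. Passage 5 alone gave 1, with 15 of the 16 log2 fold changes positive and that of Cacna2d2 at -0.19. For Cacna1g, Cacna1i, Scn3a, Scn7a and Scn9a the sign could only be positive, as they had 0 CPM in every passage 5 sample without Ngn3. The cause of the lost calls was not tested, though each left-out replicate means fewer samples. Counts in single pairs moved more. For NP against P in WT cultures, no filter gave 7, the replicate block 4, only the conditions compared 6, DESeq2 5 and a left-out replicate 0 to 4. In 6SA cultures these were 7, 6, 2, 5 and 0 to 5, and 4 with the newer edgeR setting. For NM against M in WT they were 5, 2, 5, 2 and 0 to 2, and in 6SA 9, 8, 8, 8 and 0 to 7, with 7 for the newer setting. For NPM against PM a left-out replicate gave 1 to 9 in WT and 0 to 9 in 6SA. NPM against NP called 2 members with no filter, 2 with the newer setting, 3 with the replicate block, 0 with DESeq2 and 0 to 4 with a left-out replicate. NPM against NM called 4, 5, 5, 2 and 0 to 3. No filter called 1 member between the forms of Ngn3 and 2 in NP against NM. No other call count moved by over 1.5 times under the replicate block. Depth limits the members near 1 CPM, for which 3 counts gave up to 1.01 CPM.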
